A study of Saccharomyces cerevisiae with 24 samples.

Results

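The genes described here are the 7 genes of histidine synthesis in budding yeast, *HIS1* to *HIS7*, taken by name from the 6427 genes that each of the 4 deposited tables listed. All 7 were present in every table, and all 7 passed the filter on low values at every time point. The values are RPKM (reads scaled by gene length and by the mapped reads of the library), so levels can be compared between genes, and each value is a share of its library.

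RNA of *Saccharomyces cerevisiae* was sequenced to ask how transcript levels respond to irradiation with a UV laser. The 3 replicate cultures, grown to mid-log phase in the rich medium YEPD, were washed into phosphate buffered saline and divided into portions. The laser portion of each was irradiated for 30 s, and both portions were then returned to fresh YEPD at 30 degrees. Cells were collected 0, 15, 30 and 60 min after that transfer (T0, T15, T30 and T60), which gave 8 groups (control and laser at each time) of 3 libraries, 24 in all. Control cells were kept on ice throughout, whereas cells for the laser were aliquoted, irradiated in tubes held in a cooled block and combined again, so the light and that handling cannot be told apart. All 24 libraries carry the same strain label and the same change of medium, and YEPD supplies histidine. RNA came from whole cultures, so a change in all cells and a larger change in some of them cannot be told apart. Depth, recovered from the steps between low RPKM values, was 2564000 to 5379000 reads per library, which put 45 to 2129 reads on a *HIS* gene. The number of reads limits the precision most for *HIS6*.

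The labels name the strain BY4741, a laboratory haploid that the study lists as *MATa his3Δ1 leu2Δ0 met15Δ0 ura3Δ0* and hence as a histidine auxotroph. The tables fit this genotype at some loci and not at others. *LEU2* and *URA3*, needed for leucine and uracil synthesis, were listed at 0.021, the lowest RPKM in the tables, in 24 of 24 libraries. *STE2*, the alpha-factor receptor of *MATa* cells, was at 202 to 916 RPKM, and *MATALPHA1*, the alpha-cell regulator, was at the lowest value in 23 of 24 libraries. Against the label, *LYS2*, a lysine synthesis gene that BY4741 keeps, was at the lowest value in 24 of 24 libraries. *MET17*, the gene also called *MET15* that BY4741 lacks, was at 31.2 to 482 RPKM. *LYS2* and *MET17* were looked up after the values had been seen. *HIS3* was at 106 to 168 RPKM in all libraries. The *his3Δ1* allele lacks an internal stretch and leaves the ends of the gene, and a value per gene does not show which bases were read. Whether these cells carry *his3Δ1* or an intact *HIS3* was therefore not tested, and the *HIS3* value is given on the full annotated length.

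Histidine is made from phosphoribosyl pyrophosphate (PRPP) and ATP by a linear pathway. *HIS1* encodes ATP phosphoribosyltransferase, the first and feedback-inhibited step. *HIS4* encodes a protein with several activities that act in the early steps and in the last, the oxidation of histidinol. *HIS6* encodes the isomerase and *HIS7* the glutamine amidotransferase-cyclase that follow, and *HIS7* releases AICAR, which the purine pathway uses through *ADE16* and *ADE17*. *HIS3* (imidazoleglycerol-phosphate dehydratase), *HIS5* (histidinol-phosphate aminotransferase) and *HIS2* (histidinol phosphatase) complete the route. The general amino acid control factor Gcn4 activates most of these genes when amino acids are short, and Bas1 with Pho2 activates some of them together with purine genes. Gcn4 and Bas1 share the core sequence TGACTC.

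The upstream sequences are shown because Gcn4 and Bas1, which bind this core, also act on the purine and other amino acid genes described further on. TGACTC was searched on both strands (GAGTCA on the other) in the 500 bases before each start codon, in the R64 assembly of RefSeq. The tables hold no coordinates and the release of the S288C reference used by the authors is not given in the sources used here. At least 1 match was present for 6 of the 7 *HIS* genes, and 5 had at least 2. Of the 6025 genes with a full window, 12.6% had at least 1 match and 1.43% had at least 2. *HIS2* had none. The windows below are 30 bases on the gene's own strand, 5′ to 3′, with the match in capitals, and the number is the distance in bases from its first base to the start codon.
HIS1, 282 before the start, chrV:266050-266079, minus strand: ttgataacagcgTGACTCttcccggaaatt
HIS1, 183 before the start, chrV:265951-265980, minus strand: aagcttccaagtGAGTCAcctctaccgttg
HIS4, 255 and 243 before the start, chrIII:68571-68600, minus strand: aggcagtcgaacTGACTCtaatagTGACTC
HIS4, 199 before the start, chrIII:68515-68544, minus strand: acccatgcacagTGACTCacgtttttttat
HIS6, 94 before the start, chrIX:314897-314926, minus strand: gtctagtgtgcaGAGTCAtacggaataatt
HIS7, 144 before the start, chrII:716592-716621, minus strand: ttcatgagaaaaGAGTCAgacatcgaaaca
HIS3, 122 before the start, chrXV:721812-721841, plus strand: ccacctagcggaTGACTCtttttttttctt
HIS5, 202 before the start, chrIX:142714-142743, plus strand: tcttggatctgtTGACTCacttcaattgat

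All of these windows are intergenic in R64 except that the first *HIS4* window reaches the edge of *BIK1*. The other matches lay 286 bases before *HIS3*, inside the neighbouring gene *MRM1*, 357 and 309 bases before *HIS5*, and 230 bases before *HIS7*. *HIS4* and *HIS5* had 3 matches each, *HIS1*, *HIS3* and *HIS7* had 2, and *HIS6* had 1. A match describes letters in a window and not the binding of a factor.

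**Figure D1:**
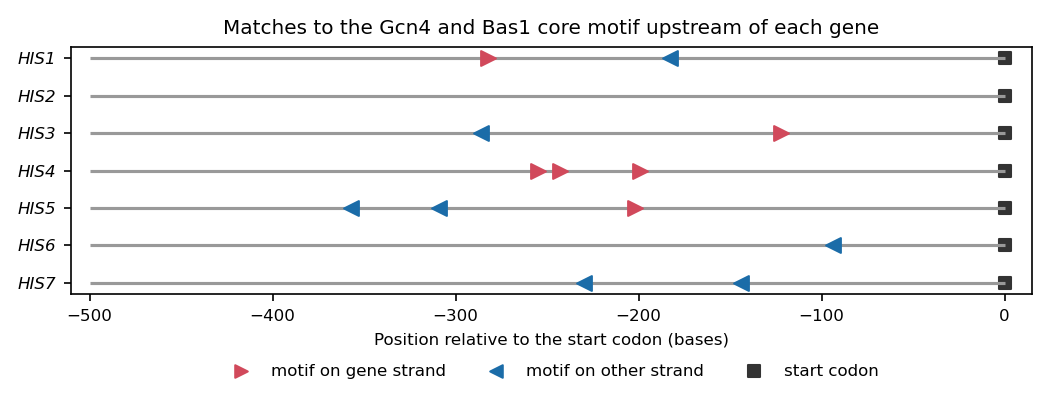
Positions of TGACTC (right-pointing, on the gene strand) and its reverse complement (left-pointing) in the 500 bases before the start codon of each *HIS* gene, in bases from the start codon (square). *HIS2* is the only one of the 7 without a match, and the 3 matches of *HIS4* lie between 255 and 199 bases before its start.

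The levels of the 7 transcripts spanned a wide range. *HIS1* (YER055C, chrV:264892-265785) was the most abundant, with a mean over the 24 libraries of 292 RPKM (SD 113), above 91.1% of all genes. *HIS3* (YOR202W, chrXV:721946-722608) followed at 130 ± 16.4 RPKM. The other 5 averaged between 46.7 and 85.7 RPKM. These were *HIS5* (YIL116W, chrIX:142928-144085) at 85.7 ± 22.5, *HIS7* (YBR248C, chrII:714807-716465) at 66.9 ± 12.2, *HIS4* (YCL030C, chrIII:65934-68333) at 56.0 ± 24.6, *HIS2* (YFR025C, chrVI:203743-204750) at 53.6 ± 12.0 and *HIS6* (YIL020C, chrIX:314035-314820) at 46.7 ± 12.1 RPKM (SD, n = 24). *HIS1* and *HIS3* held the top places of the order in all 8 groups, and the lowest *HIS1* library lay above the highest *HIS3* library of its group in all 8. *HIS3* was apart from the gene below it in every group except control T60, where its range overlapped that of *HIS5*. Among the other genes most neighbours in the order overlapped. The lowest place went to *HIS6* at T0 in both groups, to *HIS4* at T15 in both groups and in laser cells at T30, and to *HIS2* in control cells at T30 and in both groups at T60. The lowest-placed gene was apart from its neighbour in laser T0, control T15, laser T15 and laser T30. *HIS4* varied most relative to its mean, from 22.4 to 124 RPKM, and *HIS3* least.

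**Figure D2:**
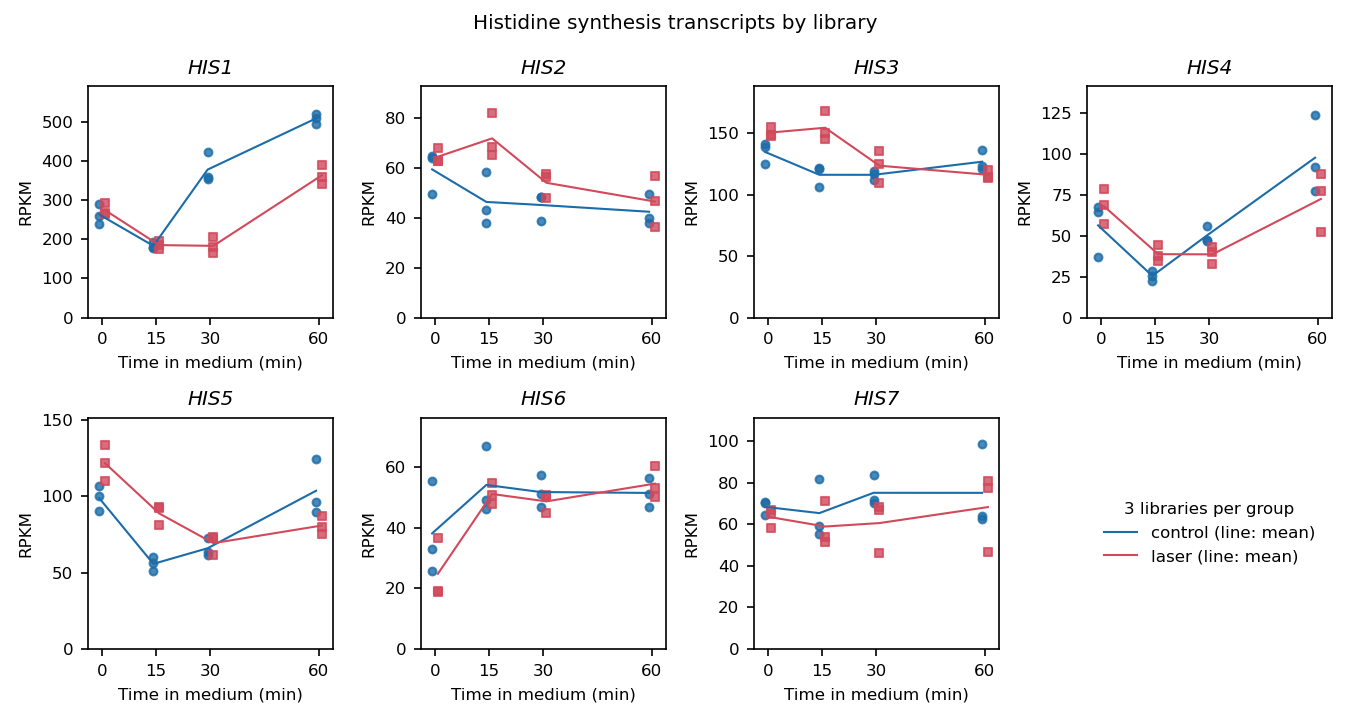
RPKM of each *HIS* gene (vertical axes, different scales, from 0) against time in fresh medium (min) for the 3 control (circles) and 3 laser (squares) libraries of each time, with lines through the group means. At T30 the *HIS1* control libraries lie at 353 to 421 RPKM and the laser libraries at 164 to 205, and in control cells *HIS4* is lowest at T15.

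The comparison of laser with control cells at the same time asks what irradiation changed. It was tested by limma on log2(RPKM + 1) with p-values adjusted over all genes of the time point by Benjamini-Hochberg. Neither this fit nor the later fit of all 24 libraries paired the libraries of a culture. A fit with the culture as a block is given where it changed whether a *HIS* gene passed. Shares of all genes that passed were taken at adjusted p only, so counts at an unadjusted p carry no such share. A gene passed at an adjusted p under 0.05, and was called when it also changed at least 2-fold. Fold changes are on the log2(RPKM + 1) scale.

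At T0 none of the 7 genes passed by limma, and none had an unadjusted p under 0.05. Over all 5884 genes 0.017% were called higher and 0% lower. The log2 fold changes ran from -0.60 for *HIS6* to 0.30 for *HIS4*, with a median of 0.13 against 0.01 over all genes. *HIS5*, with 90.4, 100, and 107 RPKM in control cells, was at 110, 134 and 122 RPKM in laser cells, without overlap (log2 fold change 0.30). *HIS3* also had all laser values above all control values, and these were 2 of the 7 genes, where 5.42% of all genes had such an order. *HIS6* differed most between cultures. Its control values were 55.4, 25.7 and 33.1 RPKM and its laser values 36.7, 18.7 and 19.0 RPKM, so that replicate 1 was the highest in both groups and laser lay below control in 3 of 3 cultures (SE 0.35 on the log2 scale, adjusted p = 0.9999, limma with Benjamini-Hochberg adjustment).

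At T15 *HIS5* and *HIS2* passed higher in laser cells, 2 of 7 genes where 22.6% of all genes did. *HIS4* and *HIS3* lay higher without passing. *HIS1*, *HIS6* and *HIS7* lay within 0.14 of control on the log2 scale. *HIS5* was at 56.5, 50.9 and 60.1 RPKM in control and at 81.1, 93.3 and 92.4 RPKM in laser cells. Its log2 fold change was 0.66 (SE 0.18, adjusted p = 0.0178 by limma with Benjamini-Hochberg adjustment). *HIS2* was at 42.8, 37.8 and 58.1 RPKM in control and at 65.0, 81.9 and 68.0 RPKM in laser cells, a log2 fold change of 0.64 (SE 0.21, adjusted p = 0.0436, same test). For both genes every laser library lay above every control library.

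*HIS4* had 25.7, 22.4 and 28.4 RPKM in control and 37.4, 34.4 and 44.6 RPKM in laser cells (log2 fold change 0.58, SE 0.21, limma adjusted p = 0.0596). *HIS3* had 106, 121 and 121 RPKM in control and 150, 168 and 145 RPKM in laser cells (log2 fold change 0.41, SE 0.17, limma adjusted p = 0.0905). These did not overlap either, so by necessity all 4 genes were higher in laser cells in 3 of 3 cultures. *HIS1* stood at 192, 180 and 177 RPKM in control and 195, 174 and 186 RPKM in laser cells, a log2 fold change of 0.01. *HIS6* and *HIS7* had log2 fold changes of -0.06 and -0.14, with overlapping groups.

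By count, 2 of 7 genes passed higher at T15, where 22.6% of all 5887 genes did, and none passed lower, where 4.26% did. None of the 7 reached 2-fold, where 12.3% of all genes were called higher and 0.815% lower, and 4 of 7 lay wholly above control, where 34.2% of all genes did. The median over the 7 genes was 0.41 and that over all genes 0.29, so the members stood close to the table as a whole. RPKM are shares, and rescaling the libraries by the median ratio moved the median of all genes to -0.02 and the members' median to 0.09. On that scale *HIS5* (0.35, limma adjusted p = 0.0799) and *HIS2* (0.32, limma adjusted p = 0.177) no longer passed. *HIS7* passed lower (-0.46, limma adjusted p = 0.0383), where 15% of all genes passed higher and 13% lower. *HIS1* (-0.31) and *HIS6* (-0.38) lay lower on that scale without passing. With the culture as a block, *HIS3* (limma adjusted p = 0.0101) and *HIS4* (limma adjusted p = 0.0038) passed as well, which made 4 of 7 higher where 41.2% of all genes passed higher in that fit. Without any of control replicate 1, control replicate 2 or laser replicate 2, none of the 7 passed, with limma adjusted p of 0.0583 to 0.0735 for *HIS5* and 0.140 to 0.156 for *HIS2*. With 1 of the 6 libraries left out, 617 to 1037 of all genes were called at 2-fold, against 773 with all 6. *HIS2* also missed without laser replicate 1 (limma adjusted p = 0.0766), without the filter (0.0785) and without the variance trend (0.0717), whereas *HIS3* passed without the filter (0.044) and *HIS4* without control replicate 3 (0.0373).

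At T30 *HIS1*, the first step of the pathway, was lower in laser cells of every culture, and no other *HIS* gene passed. Its control values were 421, 358 and 353 RPKM and its laser values 205, 164 and 180 RPKM. The lowest control library lay well above the highest laser library, and the ratio of laser to control within a culture was 0.458 to 0.510. The log2 fold change was -1.04 (SE 0.18, adjusted p = 0.0025 by limma with Benjamini-Hochberg adjustment). This was 1 of 7 genes called lower, where 1.23% of all 5871 genes were, and none of the 7 was called higher, where 10.6% were. At any fold 2.15% of all genes passed lower and 14.4% higher. *HIS1* also passed on the rescaled libraries (-1.22, limma adjusted p = 0.0088). Without control replicate 1 or laser replicate 2 its change lay just inside 2-fold (-0.96 at the least) while the adjusted p passed without each of the 6 libraries in turn, at 0.00041 to 0.0239 by limma.

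*HIS4* and *HIS7* also lay wholly below control at T30 without passing. *HIS4* had 55.9, 47.1 and 47.2 RPKM in control and 32.8, 40.0 and 43.2 RPKM in laser cells (log2 fold change -0.37, SE 0.21, limma adjusted p = 0.287). *HIS7* had 70.0, 71.6 and 83.7 RPKM in control and 46.3, 68.3 and 67.0 RPKM in laser cells (log2 fold change -0.32, limma adjusted p = 0.369). With *HIS1* these were 3 of 7 genes wholly below control, where 7.29% of all genes were. After median-ratio rescaling *HIS4* (-0.55, limma adjusted p = 0.0284) and *HIS7* (-0.50, limma adjusted p = 0.0225) passed lower, which made 3 of 7 lower where 7.97% of all genes passed lower on that scale. *HIS2*, *HIS3*, *HIS5* and *HIS6* had log2 fold changes of 0.26, 0.08, 0.07 and -0.08, with overlapping groups. The median of the 7 genes was -0.08 and that of all genes 0.15.

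At T60 none of the 7 genes passed by limma, where 0.187% of all 5877 genes were called higher and 0.051% lower, and 1 of 7 (*HIS1*) had an unadjusted p under 0.05. *HIS1* was at 510, 519 and 495 RPKM in control and at 390, 339.9 and 359 RPKM in laser cells. The groups did not overlap, so by necessity laser was lower in 3 of 3 cultures. The log2 fold change was -0.49 (SE 0.18, limma adjusted p = 0.427). With the culture as a block *HIS1* passed (limma adjusted p = 0.0074), as did *HIS4* (-0.43, limma adjusted p = 0.0467), so that 2 of 7 were then lower, where 3.62% of all genes passed lower in that fit. *HIS4* had 77.5, 92.1 and 124 RPKM in control and 52.3, 77.3 and 87.9 RPKM in laser cells, with laser lower in each culture and the groups overlapping. *HIS5* (-0.34) and *HIS3* (-0.12) also lay wholly below control. That made 3 of 7 genes with *HIS1*, where 3.16% of all genes were wholly below. *HIS2*, *HIS6* and *HIS7* overlapped, with log2 fold changes of 0.12, 0.08 and -0.15.

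**Figure D3:**
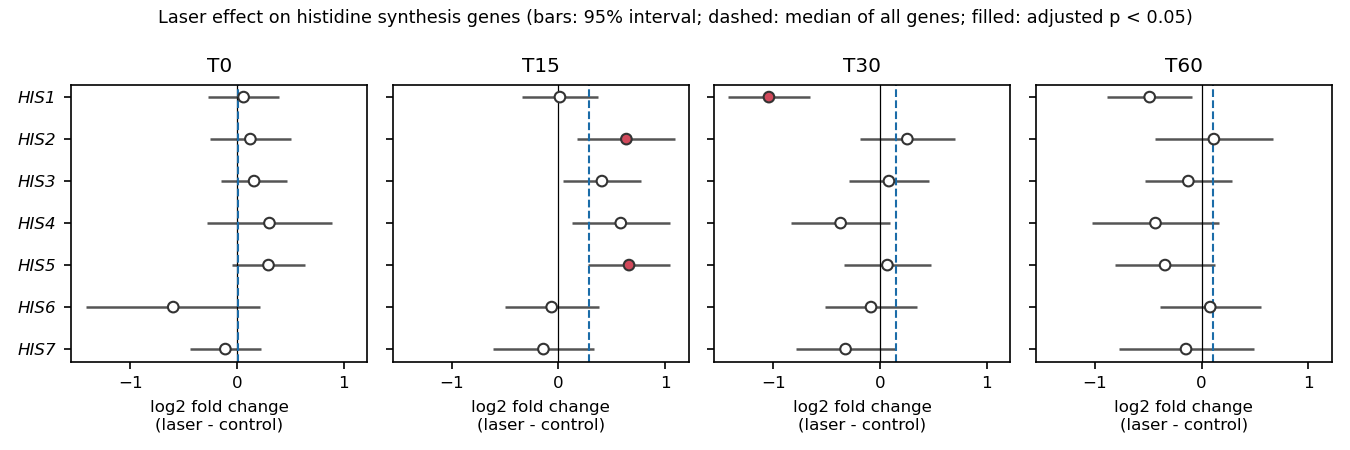
Log2 fold change of laser against control on the log2(RPKM + 1) scale (horizontal axis) for each *HIS* gene at T0, T15, T30 and T60, with 95% intervals from limma, 3 libraries per group. Filled points passed at an adjusted p under 0.05 and the dashed line is the median of all genes; *HIS1* at T30 lies at -1.04, against -0.08 for the median of the 7 genes.

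Whether the laser effect itself differed between consecutive times was tested in a fit of all 24 libraries. From T15 to T30 the effect on *HIS1* fell by 1.06 on the log2 scale (SE 0.18, adjusted p = 0.0038 by limma with Benjamini-Hochberg adjustment), 1 of 7 genes called lower where 0.342% of all 6146 genes were, and none was called higher, where 0.195% were. All 7 estimates were negative in this fit, from -1.06 to -0.02, where the median of all genes was -0.06. The sign did not hold for every gene in other fits. *HIS6* was at 0.07 after median-ratio rescaling, and with a replicate left out *HIS6* and *HIS7* reached 0.13 and 0.003. *HIS4* was at -0.95 (limma adjusted p = 0.426) and *HIS5* at -0.59 (limma adjusted p = 0.456). *HIS4* passed after median-ratio rescaling (-0.87, limma adjusted p = 0.0448), where 0.635% of all genes passed lower. The *HIS1* result was lost after that rescaling (-0.97, limma adjusted p = 0.163), without replicate 2 (-1.05, limma adjusted p = 1) and without replicate 3 (-1.06, limma adjusted p = 0.165). For this change 0 to 23 of all genes were called at 2-fold with 1 replicate left out, against 33 with all libraries. From T0 to T15 none of the 7 genes passed and none had an unadjusted p under 0.05, where 3.95% of all genes were called higher (4.6% at any fold) and 0.244% lower. From T30 to T60 none passed and 1 (*HIS1*, 0.56, limma adjusted p = 0.128) had an unadjusted p under 0.05, where 0.26% were called higher and 2.08% lower. With the culture as a block *HIS1* passed there (limma adjusted p = 0.0163), where 1.32% of all genes passed higher.

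The changes between consecutive times within control cells show how the genes moved after return to medium. These comparisons share the libraries of the middle times, and share the control libraries with the laser comparisons above. *HIS4*, *HIS5* and *HIS1* fell from T0 to T15. *HIS4* went from 37.1, 67.4 and 64.7 RPKM to 25.7, 22.4 and 28.4 RPKM (log2 change -1.07, SE 0.23, adjusted p = 0.0017 by limma with Benjamini-Hochberg adjustment). *HIS5* changed by -0.82 (SE 0.15, limma adjusted p = 3.7e-04) and *HIS1* by -0.52 (SE 0.13, limma adjusted p = 0.0049). That was 3 of 7 passing lower, where 24.6% of all genes did, with 1 at 2-fold, where 12.1% were, and none passed higher, where 4.93% did (1.56% at 2-fold). The median of all genes was -0.33. After median-ratio rescaling *HIS1* no longer passed (-0.19, limma adjusted p = 0.534). *HIS6* lay higher at T15 (0.55, limma adjusted p = 0.0961) and passed with the culture as a block (limma adjusted p = 0.0313), after rescaling (0.87, limma adjusted p = 0.0427) and without replicate 1 (0.90, limma adjusted p = 0.0039). Of all genes 9.27% passed higher with the block and 13.7% after rescaling. *HIS2*, *HIS3* and *HIS7* had changes of -0.36, -0.21 and -0.08, none passing.

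From T15 to T30 *HIS1* and *HIS4* rose again in control cells. *HIS1* went from 192, 180 and 177 RPKM to 421, 358 and 353 RPKM, without overlap (log2 change 1.04, SE 0.13, adjusted p = 2.6e-05 by limma with Benjamini-Hochberg adjustment). *HIS4* went from 25.7, 22.4 and 28.4 RPKM to 55.9, 47.1 and 47.2 RPKM, also without overlap (0.95, limma adjusted p = 0.0163). These were 2 of 7 genes, where 0.96% of all genes passed higher, and 1 of 7 at 2-fold, where 0.651% were; without replicate 1 the *HIS1* rise lay just inside 2-fold (0.99). None passed lower, where 3.86% did (2.34% at 2-fold). The other 5 genes changed by between -0.05 and 0.24 on the log2 scale without passing. From T30 to T60 *HIS5* rose by 0.63 (SE 0.15, limma adjusted p = 0.0408), 1 of 7 where 0.521% passed higher, and none reached 2-fold, where 0.374% did. None passed lower, where 0.504% did. The *HIS5* result was lost without the variance trend (limma adjusted p = 0.0555) and without each of replicates 1, 2 and 3 (limma adjusted p = 0.057, 1 and 0.642). *HIS4* (0.93, limma adjusted p = 0.0566) and *HIS1* (0.43, limma adjusted p = 0.147) passed with the culture as a block (limma adjusted p = 0.0028 and 0.0159), and *HIS4* also after rescaling (1.01, limma adjusted p = 5.7e-04) and without replicate 1 (1.16, limma adjusted p = 0.0092). In the fit with the block 3 of 7 were higher over this step, where 2.07% of all genes passed higher.

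In laser cells *HIS1* and *HIS4* also fell from T0 to T15, and they rose from T30 to T60. From T0 to T15 *HIS1* changed by -0.57 (limma adjusted p = 0.0045, and 0.0926 after rescaling) and *HIS4* by -0.79 (limma adjusted p = 0.027), 2 of 7 where 6.74% of all genes passed lower. *HIS6* rose from 36.7, 18.7 and 19.0 RPKM to 54.6, 47.7 and 50.7 RPKM (1.08, SE 0.25, limma adjusted p = 0.0045), 1 of 7 called higher where 2.75% were (5.4% at any fold). *HIS5* changed by -0.45 (limma adjusted p = 0.0515) and passed with the block (limma adjusted p = 0.0121), which made 3 of 7 lower where 13.4% of all genes passed lower.

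From T15 to T30 none of the 7 genes passed in laser cells by limma, where 0.423% of all genes passed higher and 2.25% lower (1.4% at 2-fold). The 3 genes *HIS2*, *HIS3* and *HIS5* had an unadjusted p under 0.05, all lower (-0.40, -0.32 and -0.35). The median of all genes was -0.16 over this step. After median-ratio rescaling these 3 changes were -0.24, -0.16 and -0.19, none passing. *HIS1* stayed between 164 and 205 RPKM over both times (log2 change -0.02) and *HIS4* between 32.8 and 44.6 RPKM (-0.01). From T30 to T60 *HIS1* rose to 390, 339.9 and 359 RPKM (0.99, limma adjusted p = 1.9e-05) and *HIS4* rose by 0.87 (limma adjusted p = 0.0169). These were 2 of 7, where 1.84% passed higher, and neither reached 2-fold, where 1.04% did. None passed lower, where 8.74% did (5.09% at 2-fold). Without replicate 2 no *HIS* gene passed in any of these 6 steps, with limma adjusted p of 0.0574 for the *HIS1* rise in control cells and 0.0532 for that in laser cells. The estimates of these 2 rises were then 1.06 and 0.96. Over all genes the calls at 2-fold also moved when 1 replicate was left out. They ran from 209 to 1185, 26 to 192 and 0 to 58 over the 3 control steps, against 841, 184 and 49 with all libraries. Over the 3 laser steps they ran from 70 to 464, 0 to 107 and 73 to 364, against 431, 102 and 377. Left-out replicates of the other numbers also ended single results: *HIS4* from T15 to T30 in control cells (without replicate 3, limma adjusted p = 0.0521), and in laser cells *HIS1*, *HIS4* and *HIS6* from T0 to T15 and *HIS4* from T30 to T60 (without replicate 3, limma adjusted p = 0.0706, 0.104, 0.110 and 0.111).

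**Figure D4:**
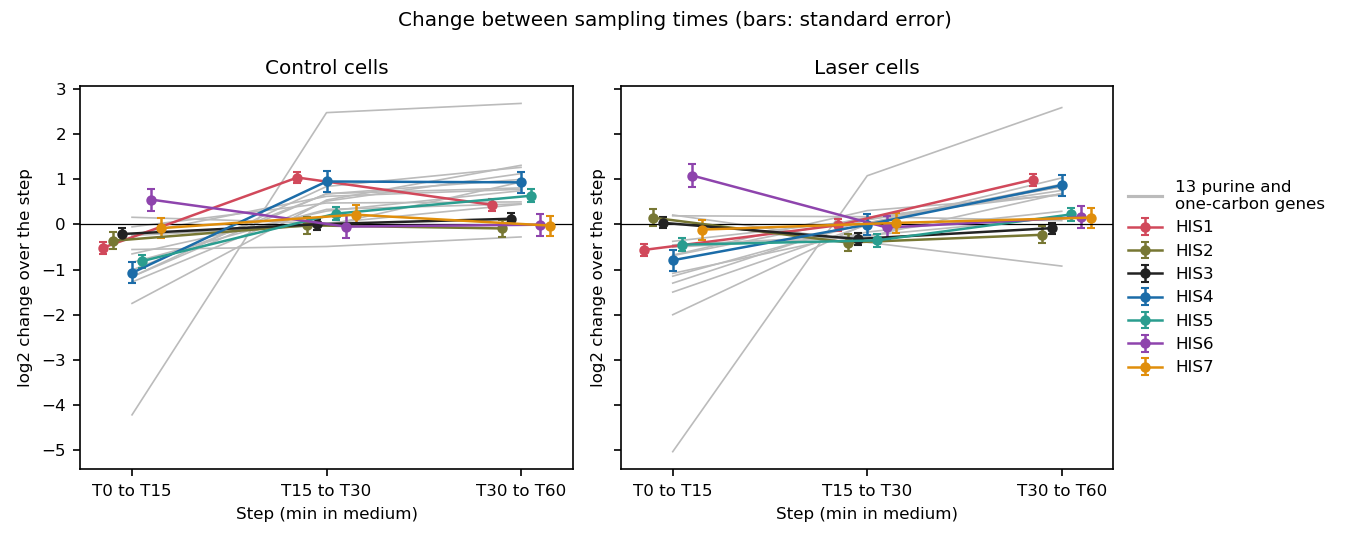
Log2 change of each *HIS* gene over each step between sampling times in control (left) and laser cells (right), with the standard error from the 24-library limma fit; grey lines are the 13 purine and one-carbon genes. *HIS1* and *HIS4* lie at 1.04 and 0.95 over T15 to T30 in control cells and at -0.02 and -0.01 in laser cells.

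The 7 genes did not vary as a unit over the 24 libraries. Correlations here describe libraries that share cultures, groups and scaling, and carry no test. Against the mean of the other genes outside *HIS3* (log values standardized per gene), Pearson's r was 0.75 for *HIS4*, 0.48 for *HIS5*, 0.41 for *HIS7* and 0.39 for *HIS1*, and it was -0.15 for *HIS2*, -0.46 for *HIS6* and 0.11 for *HIS3*. Of the pairs, *HIS1* with *HIS4* (0.76) and *HIS4* with *HIS5* (0.73) were the closest, *HIS2* went with *HIS3* (0.66), and *HIS5* and *HIS6* went opposite ways (-0.63). The genes most like the mean of the 6 genes outside *HIS3* were *HSL1* (a protein kinase of the bud neck, r = 0.90), *MCD1* (a cohesin subunit, 0.90), *TOS4* (0.87), *SPC42* (a spindle pole body protein, 0.87) and *CDC21* (thymidylate synthase, 0.86), among the 5431 genes that reached an RPKM of 1 in every library. Most like *HIS3* were *MIC10* (0.81), *YET2* (0.80) and *YAP5* (0.80). Over the 8 group means the 5 genes ranked 3, 2, 6, 1 and 9 in the same order of names, and the 3 genes like *HIS3* ranked 512, 60 and 73.

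The genes beside *HIS3* give its context, because the *HIS3* window holds part of *MRM1* (also called *PET56*, a mitochondrial rRNA methyltransferase) and *DED1* (an RNA helicase) follows it. *MRM1* had laser log2 fold changes of -0.03, 0.29, 0.28 and 0.01 at T0, T15, T30 and T60, and *DED1* had -0.51, 0.06, 0.24 and -0.05, none passing. *HIS3* at T15 (0.41) lay above both without passing.

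Genes that feed the pathway, or take up or use histidine, were described next to it. None of the 5 PRPP synthetase genes, which make its starting material, passed between laser and control cells at any time by limma, and none had an unadjusted p under 0.05. Their T15 median was -0.21, with *PRS3* at -0.36 (limma adjusted p = 0.128), *PRS5* at -0.29 and *PRS4* at -0.21. Over the step from T0 to T15 in control cells their median was 0.55 (range -0.35 to 0.68), where all genes had -0.33. There 3 of 5 passed higher, where 4.93% of all genes did: *PRS3* by 0.68 (limma adjusted p = 0.0035), *PRS4* by 0.55 (limma adjusted p = 0.0177) and *PRS1*, named after its value was seen, by 0.57 (limma adjusted p = 0.0052). In laser cells *PRS1* alone of the 5 passed over that step (0.45, limma adjusted p = 0.0427), where 5.4% of all genes passed higher, and none of the 5 passed over the later steps in either group by limma, with 1 at an unadjusted p under 0.05. *HTS1*, which charges histidine to its tRNA, was at 0.08, -0.19, -0.18 and 0.11 over the 4 times without passing, and the histidine permease gene *HIP1* at 0.04, -0.25, 0.09 and 0.07 without passing. Of the 7 uptake and storage genes 6 were tested (*VBA3* was not). At T15 3 of 6 passed higher, where 22.6% of all genes did, and 1 of them at 2-fold, where 12.3% did. In laser cells *GAP1*, the general amino acid permease, was higher than in control cells by 1.24 (limma adjusted p = 0.003). *AGP1*, a broad permease, was higher by 0.82 (limma adjusted p = 0.0272) and *VBA2*, a vacuolar transporter of basic amino acids, by 0.74 (limma adjusted p = 0.0251). *TAT1*, named after its values were seen, lay lower (-0.43), and 1 of the 6 had an unadjusted p under 0.05 lower. From T0 to T15 mean *GAP1* fell from 226 to 21.2 RPKM in control and from 227 to 50.5 RPKM in laser cells. Mean *AGP1* fell from 254 to 51.7 and from 401 to 92.6 RPKM. At T30 *GAP1* alone of these 6 passed (1.46, limma adjusted p = 0.0098), where 14.4% of all genes passed higher.

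None of the 8 genes for regulators of *HIS* transcription passed at any time by limma, and at T15 1 of 8 had an unadjusted p under 0.05, against 0 at the other times. *GCN4* was at 0.24, -0.08, -0.03 and 0.00. Gcn4 activity is set mainly by translation, which RPKM do not measure. *PHO2*, the partner of Bas1, was at 0.76 at T15 (limma adjusted p = 0.0606), *BAS1* at -0.42 (limma adjusted p = 0.141) and *GCN1*, needed to sense uncharged tRNA, at -0.41 at T30 (limma adjusted p = 0.313). Of 38 Gcn4 targets in other amino acid pathways 37 were tested (*LYS2* was not). At T15 10 passed higher and 2 lower (5 and 1 at 2-fold), where 22.6% and 4.26% of all genes did (12.3% and 0.815% at 2-fold), and the median was 0.30 against 0.29 over all genes. At T30 3 passed higher and 3 lower, where 14.4% and 2.15% of all genes did, with a median of 0.07 against 0.15 over all genes. *ARG3* (ornithine carbamoyltransferase) was higher in laser cells by 3.92 at T15 (limma adjusted p = 2.4e-04). Its control values there were low, from 0.221 to 3.79 RPKM with a median of 3.78. It was already higher at T0, with 5.36 to 9.64 RPKM in control and 19.0 to 29.8 RPKM in laser cells (1.53, not passing). At T60 it was higher by 1.75 without passing. *ARG1* (argininosuccinate synthetase) was higher in laser cells by 1.69 at T15 (limma adjusted p = 9.8e-04). *ILV3*, of branched-chain amino acid synthesis, was lower by 1.18 at T30 (limma adjusted p = 0.0012). At T0 and T60 none of the 37 passed by limma, with 5 and 3 at an unadjusted p under 0.05.

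The purine and one-carbon genes are tied to the *HIS* genes by AICAR and by the shared motif, which 11 of 12 with a full window held. At T15 3 of 13 passed higher in laser cells, where 22.6% of all genes did. At T30 1 passed higher and 3 lower, where 14.4% and 2.15% of all genes did, with a median of -0.28 beside -0.08 for the *HIS* genes and 0.15 for all genes. At T60 none of the 13 passed by limma, where 0.187% of all genes passed higher and 0.051% lower. Their median was -0.52, beside -0.15 for the *HIS* genes and 0.11 for all genes. There 6 of the 13 had an unadjusted p under 0.05, all lower, and the share of all genes at that cutoff was not counted. *ADE17* was at 50.7, 35.4 and 27.5 RPKM in control and at 9.5, 14.9 and 17.9 RPKM in laser cells at T30, without overlap (log2 fold change -1.36, SE 0.31, limma adjusted p = 0.0129). Its paralog *ADE16* was higher in laser cells at T15 (0.74, limma adjusted p = 0.014) and T30 (0.83), and *ADE13* (adenylosuccinate lyase) was lower at T30 (-0.74, limma adjusted p = 0.0162). *ADE16* and *ADE17* are close copies, so reads may be placed with less certainty between them.

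Within control cells most of the purine genes also fell and then rose. Mean *ADE16* instead fell at each step (294, 198, 140 and 116 RPKM). Mean *ADE4*, named after its values were seen, rose at each (86.3, 96.3, 97.9 and 134 RPKM). From T0 to T15 8 of 13 passed lower, where 24.6% of all genes did, from T15 to T30 3 passed higher, where 0.96% did, and from T30 to T60 6 did, where 0.521% did. In laser cells 9 of 13 passed lower over the first step, where 6.74% of all genes did. None passed over the second by limma, where 0.423% passed higher and 2.25% lower, and 1 had an unadjusted p under 0.05, higher. Over the third 8 passed higher, where 1.84% did, and 1 (*ADE16*, -0.92) lower, where 8.74% did. *ADE17* had the widest swings, with log2 changes of -4.21, 2.47 and 2.67 over the 3 steps in control cells and -5.03, 1.08 and 2.58 in laser cells. The *HIS* genes changed less than *ADE17*, and beside these counts *HIS1* and *HIS4* passed higher over T15 to T30 in control cells and over T30 to T60 in laser cells.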

How the data were processed

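The authors made poly(A)-selected libraries with a stranded kit, aligned the reads to the S288C reference and deposited RPKM per gene and replicate, in 4 tables of 1 time point each; genes without reads carry 0.021. How strand entered the counting is not given in the sources used here. The deposited group means, fold changes, t scores and p-values were not used. Depth is approximate: 85.7% to 92.7% of low values per library lay within 0.08 of whole reads.

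Names were matched to R64 for 6074 of 6427 genes. Values were transformed as log2(RPKM + 1), genes reaching an RPKM of 1 in 3 or more libraries were kept, and limma 3.58.1 in R 4.3.3 was run with its variance trend, using 6 libraries per laser comparison and 24 for time steps and changes of the laser effect. The laser comparison at T15 was tested on simulated data, with values drawn independently for each library. That simulation held no culture effect and no shift of whole libraries, and the fit of 24 libraries was not simulated. Tables, motifs and figures used pandas 2.3.3, NumPy 2.4.6 and Matplotlib 3.10.9 under Python 3.11.15. Replicates were separate cultures, each divided into control and laser portions; deviations of portions with the same number correlated at -0.02 to 0.47, and a fit with the culture as a block was the paired alternative. Other alternatives were a pseudocount of 0.1, no filter, median-ratio rescaling, no variance trend, and leaving out each replicate.

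The members and the lists were chosen with earlier results of these data known. Named were all 7 members, up to 3 genes of each other list with the smallest adjusted p at T15 or T30, *HIP1*, *HTS1*, *GCN4*, *BAS1*, *MRM1*, *DED1*, and the genes closest in pattern; the strain markers were a separate check.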

Additional observations from a re-analysis of the deposited data

Results flagged for a closer look

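The effect of the laser on *HIS1* differed between T15 and T30. It was 0.01 on the log2 scale at T15, where the median of all genes was 0.29, and -1.04 at T30, where that median was 0.15. After median-ratio rescaling it was -0.31 (limma adjusted p = 0.191) and -1.22 (limma adjusted p = 0.0088). Without rescaling, the change of -1.06 passed the test of the difference itself (adjusted p = 0.0038 by limma with Benjamini-Hochberg adjustment, 3 libraries per group). With the culture as a block the adjusted p was 1.6e-04 by limma. Laser cells were lower than control cells in 1 of 3 cultures at T15 and in 3 of 3 at T30. The result was lost after median-ratio rescaling and without replicate 2 or replicate 3, with the values given above.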

How the results depend on the processing

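Counts of *HIS* genes called at 2-fold moved only with the scaling of the libraries and with left-out replicates. After median-ratio rescaling the count was 0 instead of 1 for control cells from T0 to T15, 2 instead of 1 for control cells from T15 to T30, 1 instead of 0 for control cells from T30 to T60, 2 instead of 0 for laser cells from T30 to T60, and 0 instead of 1 for the change of the laser effect from T15 to T30. Over all genes rescaling moved the calls higher and lower from 40 and 144 to 53 and 154 for control cells from T15 to T30. From T30 to T60 they moved from 23 and 26 to 40 and 32 in control cells. In laser cells over that step they moved from 64 and 313 to 102 and 245. For the change of the laser effect from T15 to T30 they moved from 12 and 21 to 26 and 32. With replicates left out in turn the count of *HIS* genes ran from 0 to 1 for laser against control at T30, for every control step, for laser cells from T0 to T15 and from T30 to T60, and for the change of the effect from T15 to T30. Over all genes 470 to 949 were then called for laser against control at T30. For single genes the threshold was an adjusted p under 0.05 at any fold. Of 91 values, 91 stayed on their side of it with a pseudocount of 0.1, 85 without the filter and 78 after rescaling. With the replicate block 82 did, where 9 values came to pass and none stopped passing. Without the variance trend 89 did. No value that passed in either of the 2 fits compared changed sign. Over 357 values with a replicate left out, 27 no longer passed at any fold and 3 came to pass. Over all genes, rescaling changed the genes called higher and lower from 725 and 48 to 386 and 192 at T15, from 621 and 72 to 476 and 113 at T30 (80.8% higher), from 11 and 3 to 28 and 18 at T60, and from 96 and 745 to 261 and 423 for control cells from T0 to T15; the block gave 135 and 49 at T60. The cause of these shifts was not tested. Depth limits *HIS6* most, with 45 reads in its lowest library.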
